A study of Mus musculus with 9 samples.

Results

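The 36 genes described here encode proteins of autophagy and of the lysosome, and they were taken by symbol from a list of gene names out of the 22322 genes in the deposited tables. All 36 were found once, and all 36 passed the filter on low counts that left 13158 genes for testing. They fall into 4 roles: 14 genes of the autophagy machinery, 3 regulators of lysosomal gene expression, 12 lysosomal enzymes, and 7 other proteins of the lysosomal membrane or lumen. RNA came from mouse R1 embryonic stem cells, an established line, that carried a control hairpin (sh-ctrl, labelled wild type), a hairpin against Pfkp (sh-Pfkp, labelled Pfkp knockdown) or a hairpin against Lin41 (sh-Lin41, labelled Lin41 knockdown). Pfkp encodes a phosphofructokinase of glycolysis. The gene for Lin41 is listed as Trim71, and its protein binds RNA and acts as a ubiquitin ligase in early embryonic cells. Cells of every group were kept in suspension without LIF, the cytokine that holds them in the stem cell state, for 6 days, so that embryoid bodies formed. There were 3 libraries per group. The labels name 1 hairpin per target. They do not state that replicate libraries stem from independent cultures, and the p-values therefore reflect variation among libraries that could be purely technical.

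Autophagy encloses cytoplasm in a double membrane, the autophagosome, and delivers it to the lysosome. The Ulk1 kinase and the Becn1 lipid kinase complex start the membrane, Wipi proteins read its lipid signal, and an Atg12, Atg5 and Atg16l1 complex attaches small ATG8-family proteins to it. The lysosome then breaks the cargo down with acid hydrolases, and the factors Tfeb and Tfe3, which mTORC1 and the Flcn protein hold in the cytoplasm, switch on many of its genes. In mouse embryonic stem cells, Flcn and nuclear exclusion of Tfe3 are known to be needed for exit from the stem cell state.

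Library totals ran from 15495194 to 20607683 counts. Levels are given as CPM, counts scaled to library sizes that were adjusted by TMM. Both targets were lower where the label says so: Pfkp stood at 103 ± 1.89 CPM in sh-Pfkp and 247 ± 1.83 CPM in sh-ctrl (SD, n = 3), and Trim71 at 159.6 ± 4.89 CPM in sh-Lin41 and 269 ± 4.72 CPM in sh-ctrl. Each target also differed from sh-ctrl under the other hairpin, with Trim71 at 352 ± 6.77 CPM in sh-Pfkp and Pfkp at 227 ± 5.39 CPM in sh-Lin41. Trim71 was thus above control in sh-Pfkp and below it in sh-Lin41. Stem cell markers were present in every group, with none of 8 under 1 CPM on average and summed levels of 4461 to 4508 CPM in sh-ctrl, 4233 to 4298 CPM in sh-Pfkp and 5203 to 5236 CPM in sh-Lin41. The sum holds genes that went opposite ways: Tdgf1 stood at 551 ± 10.4 CPM under sh-Pfkp against 984 ± 2.39 CPM under sh-ctrl (SD, n = 3), while the means of Sox2, Nanog, Zfp42 and Lin28a were higher in sh-Pfkp than in sh-ctrl. The means of Pou5f1 (843 against 892 CPM), Esrrb (790 against 814 CPM) and Utf1 (237 against 253 CPM) were also lower in sh-Pfkp than in sh-ctrl. Under sh-Lin41, Utf1 (204 ± 5.93 CPM) and Lin28a (229 ± 3.08 CPM) were below sh-ctrl (253 ± 2.43 and 299 ± 3.85 CPM). The means of the other stem cell markers were higher in sh-Lin41 than in sh-ctrl. Macrophages are rich in lysosomes, and 7 of 8 macrophage markers were under 1 CPM in every group. The 8 together summed to 7.29 to 8.64 CPM in sh-ctrl, 7.64 to 9.37 CPM in sh-Pfkp and 9.47 to 11.05 CPM in sh-Lin41, nearly all of it from Cd68, and 7, 1 and 6 of the 8 were at 0 counts in the respective groups. Fibroblast or feeder markers summed to 5.84 to 6.39 CPM in sh-ctrl, 27.1 to 32.1 CPM in sh-Pfkp and 5.60 to 7.10 CPM in sh-Lin41. Postn and Dcn were at 0 in sh-ctrl and sh-Lin41, and no marker of the list was at 0 in sh-Pfkp. Thy1 went against this sum, at 1.85 ± 0.0471 CPM under sh-Pfkp and 3.70 ± 0.205 CPM under sh-ctrl (SD, n = 3). Its level under sh-Lin41 was 3.48 ± 0.518 CPM. For every other marker of the list, the sh-Pfkp mean exceeded the means of both other groups. The 10 visceral endoderm markers summed to 5.21 to 6.39 CPM in sh-ctrl, 4.68 to 4.97 CPM in sh-Pfkp and 5.73 to 6.37 CPM in sh-Lin41, and Afp was at 0 in all 3 groups. The part of these differences in the results below was not tested, and in bulk RNA fewer cells of a type and less RNA per cell cannot be told apart.

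Most of the genes were well expressed. To compare genes with one another, the deposited FPKM was used, which divides by gene length and library size. The 36 genes had a median control level of 16.4 FPKM, against 8.44 FPKM over all genes tested, and 14 of them lay in the upper quartile of genes tested and 1 in the lower quartile. Lamp1, the most abundant protein of the lysosomal membrane, came first at 189.8 ± 1.94 FPKM in sh-ctrl (SD, n = 3). The next levels were those of Gabarapl2, an ATG8-family gene, at 77.5 ± 2.62 FPKM, the protease gene Ctsd at 64.5 ± 1.66 FPKM and the glycosidase gene Manba at 54.9 ± 0.387 FPKM. Tfe3 at 51.9 ± 2.17 FPKM and the cargo receptor gene Sqstm1 at 50 ± 0.669 FPKM followed, and they were separated from each other by less than the SD of Tfe3. At the other end, Wipi1 stood at 4.4 ± 0.717 FPKM, within 1 SD of Cln3 above it at 4.78 ± 0.383 FPKM. Naglu came last at 0.79 ± 0.0557 FPKM, and its 273 counts over all 9 libraries made it the single gene of the set with under 1000.

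**Figure D1:**
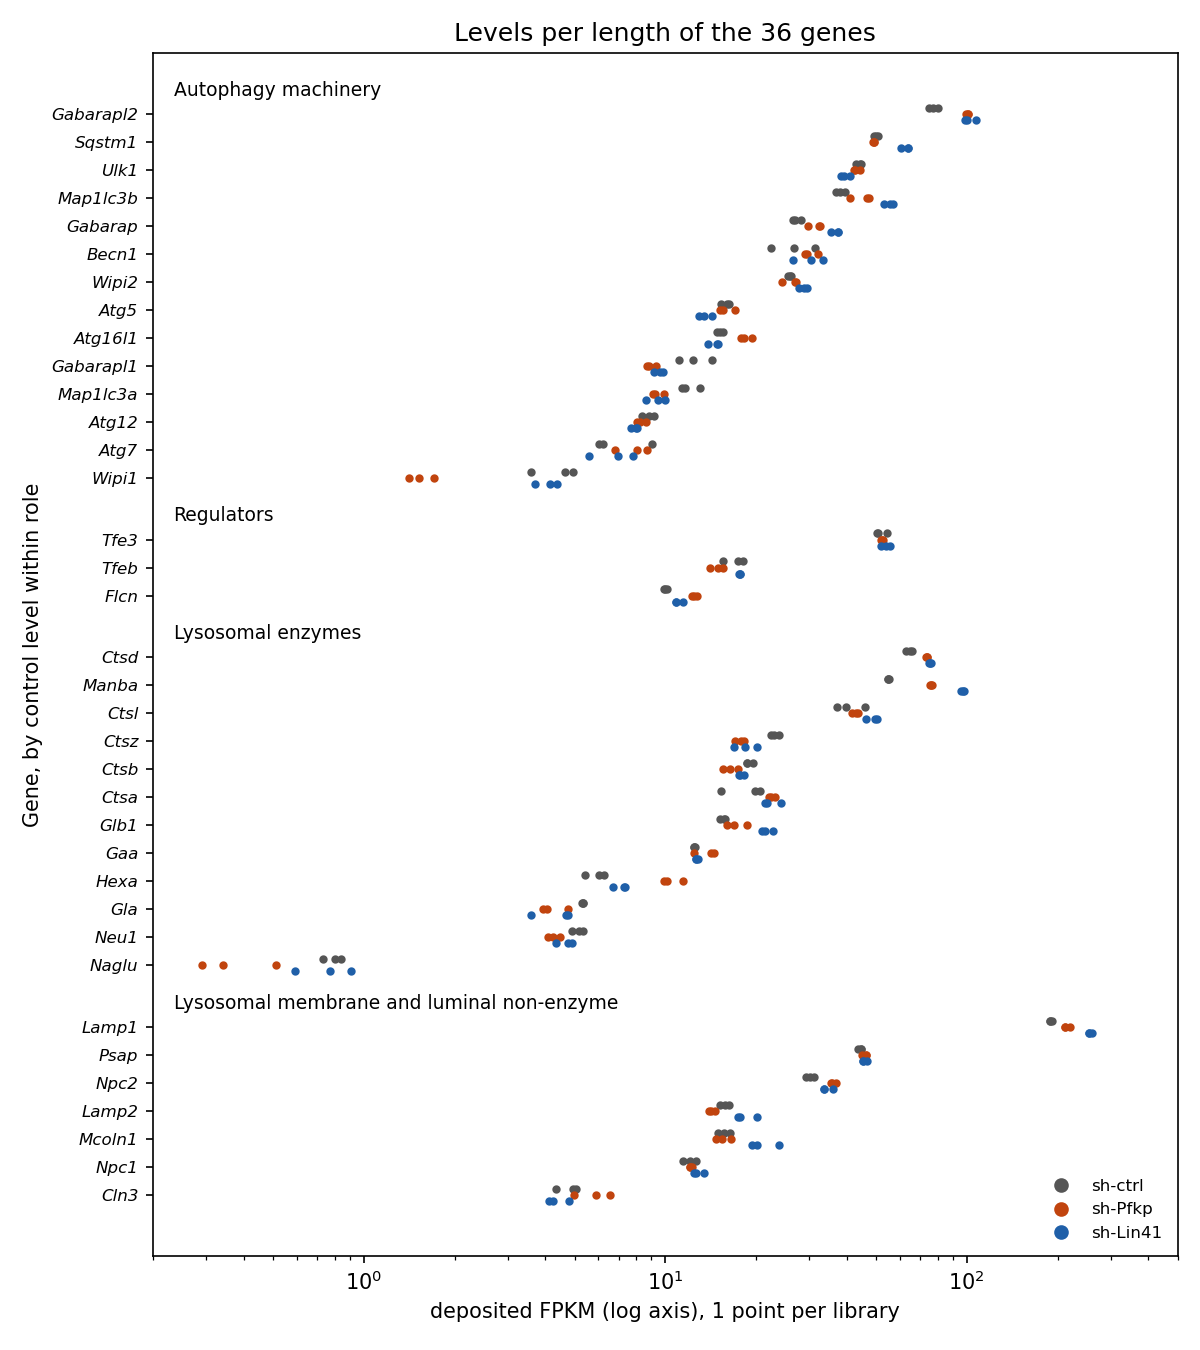
Deposited FPKM (log axis) of the 36 genes in each of 9 libraries, 1 point per library, with genes grouped by role and ordered by their control level. Levels span from under 1 FPKM for Naglu to near 190 FPKM for Lamp1 in sh-ctrl, and this range between genes is far wider than the distance between groups within a gene. Wipi1 and Naglu lie lowest and Hexa highest in sh-Pfkp, and Manba lies higher in both knockdowns than in sh-ctrl.

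Against sh-ctrl, sh-Pfkp had 17 of the 36 genes higher and 9 lower, and sh-Lin41 had 17 higher and 8 lower (edgeR's quasi-likelihood test on the counts, Benjamini-Hochberg adjusted p under 0.05 over all genes tested). Calls were common in these libraries: 56.6% of all 13158 genes tested were called between sh-Pfkp and sh-ctrl (28.3% higher and 28.3% lower), and 54.3% between sh-Lin41 and sh-ctrl (26.9% higher and 27.3% lower). The corresponding shares were 72.2% and 69.4% of the set, whose median control level was 41.4 CPM against 22.2 CPM for all genes tested. Libraries that did not overlap between groups were also common, with 61% of all genes tested between sh-Pfkp and sh-ctrl, 59% between sh-Lin41 and sh-ctrl and 59.8% between the knockdowns, so for each gene below the lack of overlap is a description of its libraries. The changes were small. The median log2 fold change was 0.078 in sh-Pfkp and 0.089 in sh-Lin41, against -0.0050 and 0.0043 over all genes, and the median absolute change was 0.23 and 0.22 against 0.21 and 0.20. Wipi1 in sh-Pfkp was the 1 gene of the 36 past a 2-fold change, in a comparison where 6.51% of all genes were called with at least that change, and none was past it in sh-Lin41, where the share was 4.26%. Both comparisons use the same 3 control libraries, so their values are given side by side and are not independent of each other.

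**Figure D2:**
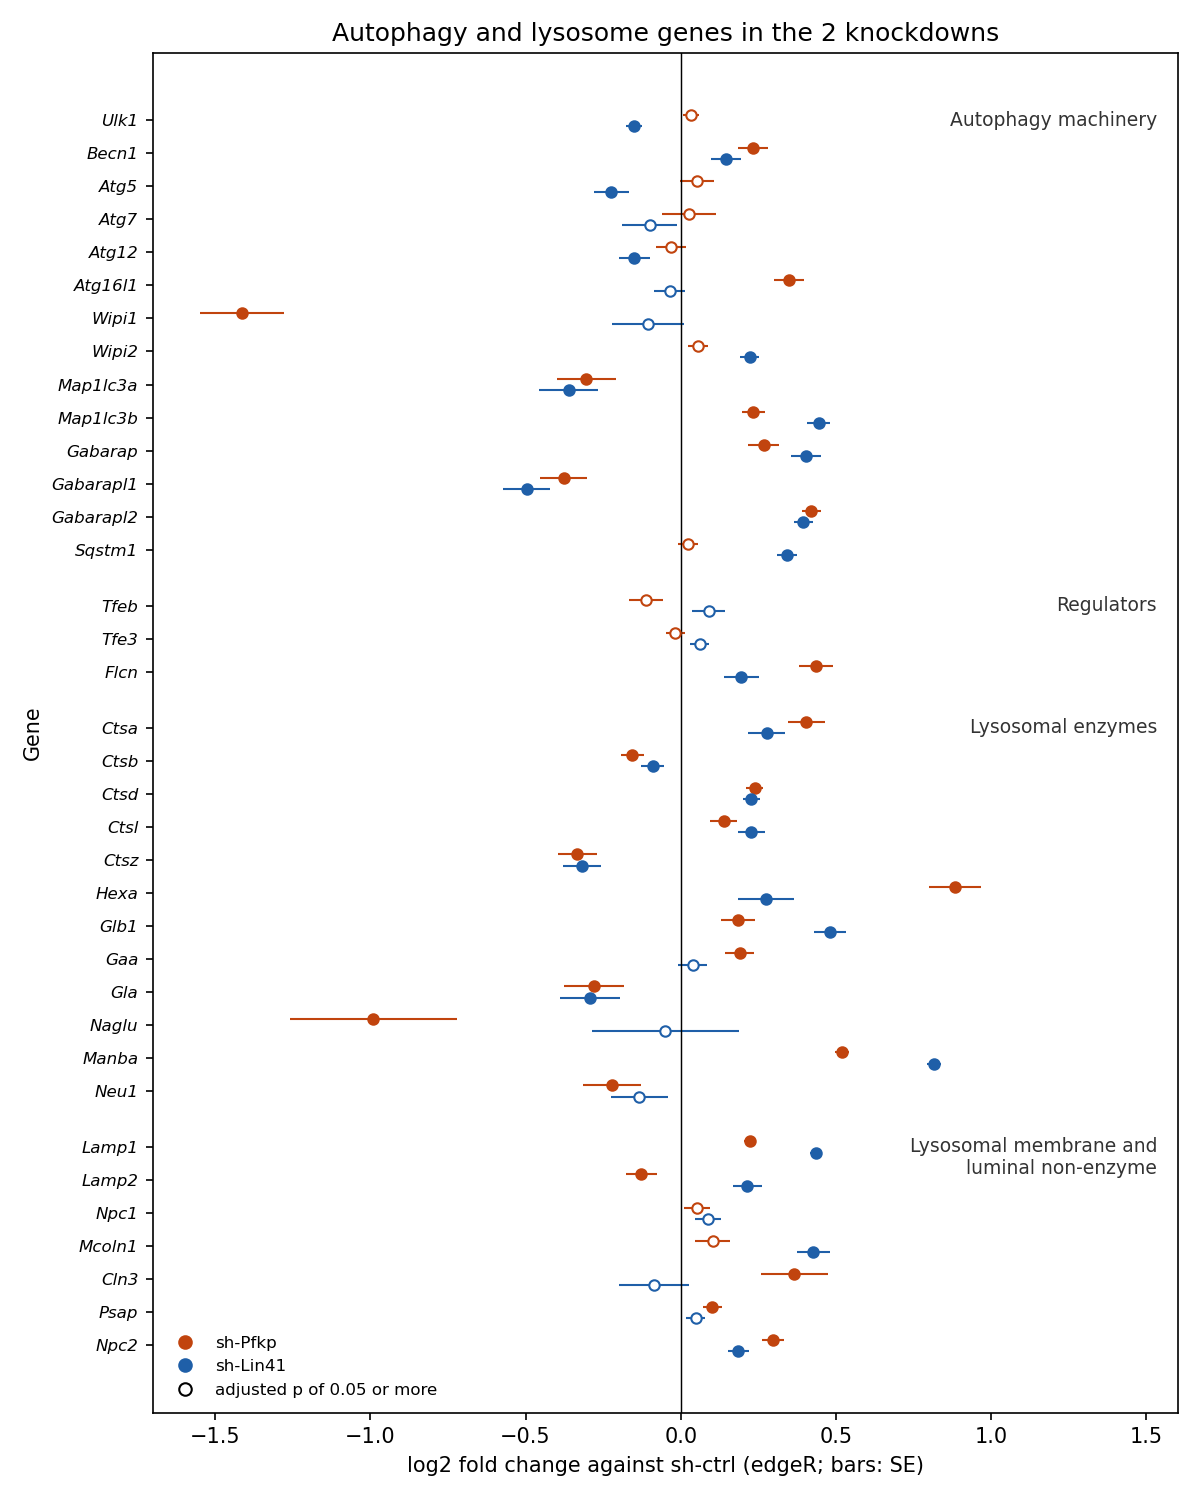
Log2 fold change against sh-ctrl for each of the 36 genes in sh-Pfkp (orange) and sh-Lin41 (blue), with bars for the standard error of the edgeR fit and open points where the adjusted p was 0.05 or more. Most values lie between -0.5 and 0.5, with Wipi1, Naglu and Hexa in sh-Pfkp and Manba in both knockdowns farther out.

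Among the 14 autophagy genes, 5 rose and 3 fell in sh-Pfkp, and 6 rose and 5 fell in sh-Lin41. The shares called were 57.1% and 78.6%, against 56.6% and 54.3% of all genes tested. The ATG8 family, whose proteins are joined to the lipid of the growing autophagosome and hold cargo receptors, was called in all 5 genes of the set in both knockdowns. Its 3 more abundant genes rose and the other two fell. Gabarapl2 read 128, 125 and 133 CPM under sh-ctrl, 170.2, 173 and 173 CPM under sh-Pfkp and 166, 164 and 177 CPM under sh-Lin41. The control libraries lay below all 6 knockdown libraries, and the knockdown groups overlapped each other; the log2 fold change was 0.42, SE 0.0308, adjusted p = 3.65e-13 in sh-Pfkp and 0.39, SE 0.0307, adjusted p = 1.44e-12 in sh-Lin41. Map1lc3b, which encodes the LC3B protein used as the standard marker of autophagosomes, read 75, 70.8 and 74.2 CPM under sh-ctrl, 84.1, 87.8 and 87.2 CPM under sh-Pfkp and 104, 98.1 and 97.2 CPM under sh-Lin41. Here the 3 groups stood apart from each other, with sh-Lin41 highest, and the log2 fold change was 0.23, SE 0.0378, adjusted p = 3.73e-06 in sh-Pfkp and 0.44, SE 0.0368, adjusted p = 5.77e-12 in sh-Lin41. Gabarap followed the same order with 36.8, 35.3 and 35.9 CPM under sh-ctrl, 45, 40.5 and 44.7 CPM under sh-Pfkp and 47.3, 47.8 and 47.9 CPM under sh-Lin41. Its log2 fold change was 0.27, SE 0.0502, adjusted p = 3.53e-05 in sh-Pfkp and 0.40, SE 0.0491, adjusted p = 2.42e-08 in sh-Lin41.

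The ATG8-family genes that fell were those with the lower levels. Gabarapl1 read 22.2, 19.9 and 21.5 CPM under sh-ctrl, 15.4, 17.4 and 16.2 CPM under sh-Pfkp and 15.4, 14.3 and 15.5 CPM under sh-Lin41. All control libraries were above all knockdown libraries, while the knockdown groups overlapped, and the log2 fold change was -0.38, SE 0.0755, adjusted p = 8.12e-05 in sh-Pfkp and -0.50, SE 0.0759, adjusted p = 1.54e-06 in sh-Lin41. Map1lc3a, which encodes LC3A, read 12.5, 12.9 and 14.3 CPM under sh-ctrl, 11.2, 10.6 and 10.4 CPM under sh-Pfkp and 11, 10.4 and 9.47 CPM under sh-Lin41. It too was lower in both knockdowns with no overlap with control, by a log2 fold change of -0.31, SE 0.0948, adjusted p = 0.00687 in sh-Pfkp and -0.36, SE 0.0946, adjusted p = 0.00176 in sh-Lin41. The sh-Pfkp call on Map1lc3a was lost without sh-ctrl replicate 3 (adjusted p = 0.0606). Between the knockdowns, of the 5 family genes, Map1lc3b (log2 fold change of sh-Pfkp over sh-Lin41 -0.21, SE 0.0354, adjusted p = 6.89e-06) and Gabarap (-0.14, SE 0.0469, adjusted p = 0.0142) were lower in sh-Pfkp. The Gabarap difference was not called without sh-Pfkp replicate 2, where it was -0.080 with adjusted p = 0.18, or by DESeq2 (adjusted p = 0.115).

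**Figure D3:**
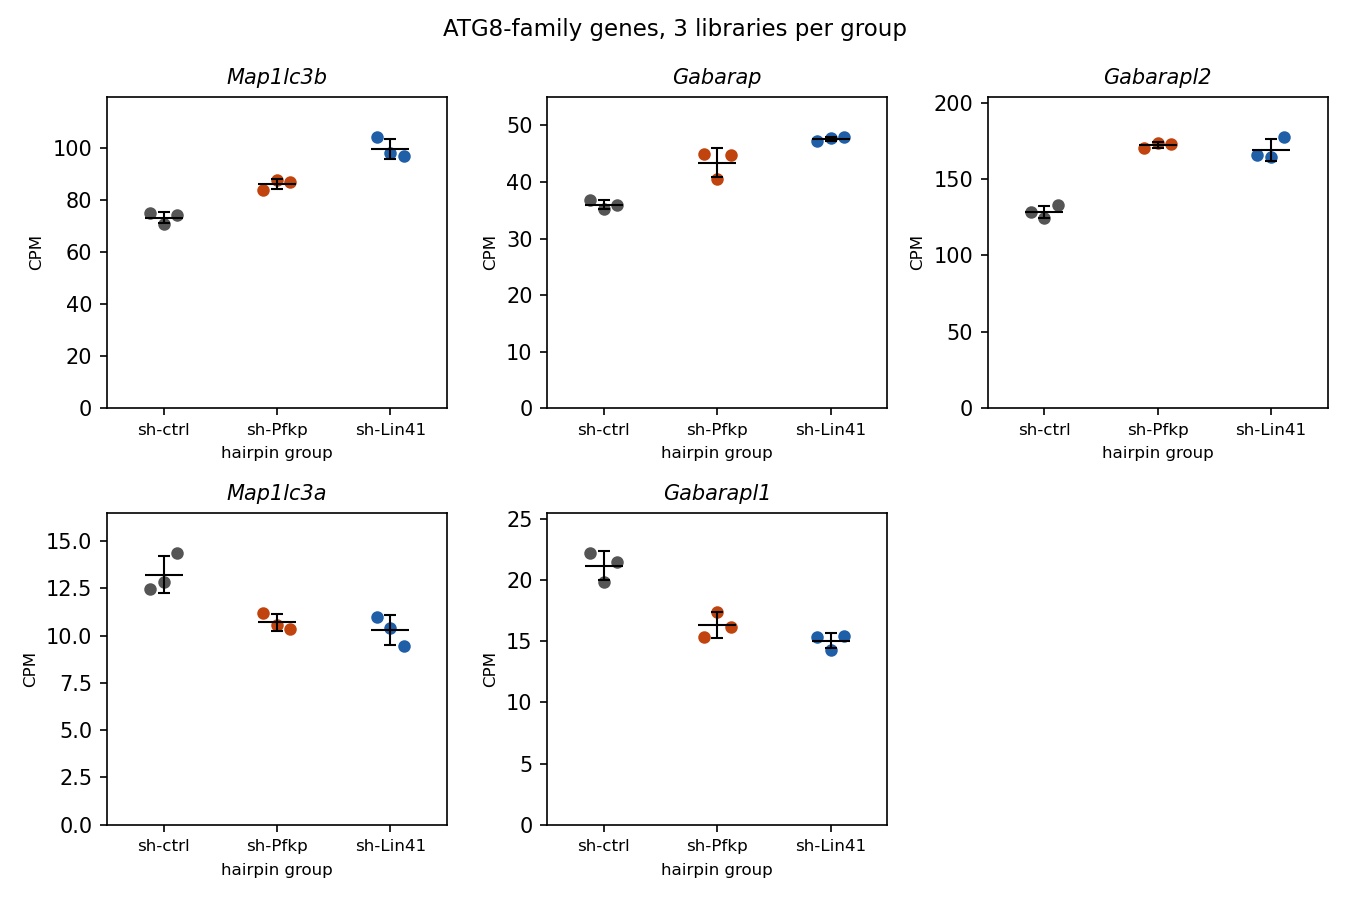
CPM of the 5 ATG8-family genes by hairpin group, 1 point per library, with the mean (long bar) and SD (capped bar) of 3 libraries. Map1lc3b, Gabarap and Gabarapl2 lie higher in both knockdowns than in sh-ctrl, and Map1lc3a and Gabarapl1 lie lower in both.

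Wipi1, which encodes a reader of the phosphoinositide that marks the forming autophagosome, changed by the largest amount among the 36 genes. It read 10.5, 11.1 and 8.46 CPM under sh-ctrl, 4.32, 3.59 and 3.32 CPM under sh-Pfkp and 9.64, 8.39 and 9.91 CPM under sh-Lin41. The sh-Pfkp libraries were all below those of the other groups, and sh-ctrl and sh-Lin41 overlapped. The log2 fold change was -1.41, SE 0.136, adjusted p = 1.88e-10 in sh-Pfkp, -0.10, SE 0.117, adjusted p = 0.468 in sh-Lin41 and -1.31, SE 0.135, adjusted p = 7.71e-10 between sh-Pfkp and sh-Lin41. The authors' deposited table lists a log2 ratio of -1.51 for Wipi1 in sh-Pfkp, which is that of mean FPKM (1.55 in sh-Pfkp and 4.40 in sh-ctrl). Its relative Wipi2, which recruits Atg16l1 to the membrane, had 108 ± 1.97 CPM in sh-ctrl, 112 ± 1.73 CPM in sh-Pfkp and 126 ± 1.71 CPM in sh-Lin41 (SD, n = 3). Wipi2 was called higher in sh-Lin41 (log2 fold change 0.22, SE 0.0301, adjusted p = 1.89e-07) and was not called in sh-Pfkp (0.055, SE 0.0308, adjusted p = 0.127).

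The genes of the ATG8 conjugation complex did not move as 1 unit. Atg16l1, its membrane-binding part, read 45.8, 46.8 and 42.6 CPM under sh-ctrl, 56.2, 55.5 and 60.3 CPM under sh-Pfkp and 41.6, 45 and 45.1 CPM under sh-Lin41. The sh-Pfkp libraries were the highest with no overlap, by a log2 fold change of 0.35, SE 0.0483, adjusted p = 2.90e-07, whereas sh-Lin41 overlapped control (-0.036, SE 0.0499, adjusted p = 0.572). Atg5 had 37 ± 1.16 CPM in sh-ctrl, 38.3 ± 2.46 CPM in sh-Pfkp and 31.6 ± 1.76 CPM in sh-Lin41. Its fall in sh-Lin41 was called (log2 fold change -0.22, SE 0.0564, adjusted p = 0.00122), and in sh-Pfkp the value was 0.053, SE 0.0551, adjusted p = 0.429. Atg12, which is joined to Atg5, was lower in sh-Lin41 by a log2 fold change of -0.15, SE 0.0498, adjusted p = 0.0117, a call lost without sh-ctrl replicate 2 (adjusted p = 0.0691) or replicate 2 of sh-Lin41 (0.0514), by DESeq2 (0.0526) and on log2(FPKM + 1) (0.0576). In sh-Pfkp the Atg12 value was -0.031, SE 0.0495, adjusted p = 0.613. Atg7, the enzyme that activates Atg12 and the ATG8 proteins, was not called in any of the 3 comparisons, with log2 fold changes of 0.026 (SE 0.0886) in sh-Pfkp and -0.10 (SE 0.089) in sh-Lin41.

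Sqstm1, the p62 receptor that ties ubiquitinated cargo to ATG8 proteins and is itself degraded by autophagy, read 104, 101 and 103 CPM under sh-ctrl, 105, 103 and 105 CPM under sh-Pfkp and 132, 126 and 132 CPM under sh-Lin41. All sh-Lin41 libraries were above the rest, and the sh-Pfkp and sh-ctrl libraries overlapped. The log2 fold change was 0.34, SE 0.0309, adjusted p = 4.17e-11 in sh-Lin41, 0.022, SE 0.032, adjusted p = 0.574 in sh-Pfkp and -0.32, SE 0.0304, adjusted p = 1.29e-10 between sh-Pfkp and sh-Lin41. Ulk1, the initiating kinase, was lower in sh-Lin41 (log2 fold change -0.15, SE 0.026, adjusted p = 9.48e-06) and not called in sh-Pfkp (0.033, SE 0.0257, adjusted p = 0.279). Becn1, the regulatory part of the lipid kinase complex, was higher in sh-Pfkp by 0.23, SE 0.0476, adjusted p = 0.000105 and in sh-Lin41 by 0.15, SE 0.0476, adjusted p = 0.0102. Neither Becn1 call was made on log2(FPKM + 1) (adjusted p = 0.212 and 0.243), and the sh-Lin41 call was lost without sh-ctrl replicate 3 (adjusted p = 0.0508) and by DESeq2 (0.0595).

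Of the 3 regulators, Flcn rose in both knockdowns and the transcription factor genes were not called against control. Flcn encodes folliculin, which acts on Rag GTPases at the lysosome and so lets mTORC1 keep Tfeb and Tfe3 out of the nucleus. It read 27.6, 27.9 and 27.1 CPM under sh-ctrl, 37.5, 37.6 and 36.4 CPM under sh-Pfkp and 31.1, 33 and 30.3 CPM under sh-Lin41. The groups did not overlap, with sh-Pfkp highest and sh-ctrl lowest, and the log2 fold change was 0.43, SE 0.0539, adjusted p = 3.53e-08 in sh-Pfkp, 0.20, SE 0.0549, adjusted p = 0.00323 in sh-Lin41 and 0.24, SE 0.0515, adjusted p = 0.000199 between sh-Pfkp and sh-Lin41. Tfeb read 40.3, 39 and 35 CPM under sh-ctrl, 36.8, 33.4 and 35.3 CPM under sh-Pfkp and 40.1, 40.8 and 40.6 CPM under sh-Lin41. Its log2 fold change was -0.11, SE 0.055, adjusted p = 0.0805 in sh-Pfkp and 0.090, SE 0.0533, adjusted p = 0.154 in sh-Lin41, and the direct difference of -0.20, SE 0.0533, adjusted p = 0.00166 was called. The sh-Pfkp value of Tfeb became a call without sh-ctrl replicate 3 (log2 fold change -0.17, adjusted p = 0.0152) or replicate 1 of sh-Pfkp (-0.14, 0.0486), with scaling by upper quartile (0.0192) or library size (0.0133), and on log2(FPKM + 1) (0.0228).

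Tfe3, at 115 ± 1.93 CPM the most abundant of the 3 regulators in sh-ctrl, stood at 114 ± 3.21 CPM in sh-Pfkp and 119.9 ± 0.506 CPM in sh-Lin41 (SD, n = 3). The log2 fold changes were -0.018, SE 0.0309, adjusted p = 0.637 in sh-Pfkp and 0.062, SE 0.0304, adjusted p = 0.087 in sh-Lin41. The difference between the knockdowns, -0.080, SE 0.0301, adjusted p = 0.0249, was called with all libraries but not without sh-Pfkp replicate 1 or 2 or any of the 3 sh-Lin41 libraries (adjusted p from 0.056 to 0.186), by DESeq2 (0.164) or on log2(FPKM + 1) (0.366). With all 9 libraries, no regulator was called lower against control by edgeR with TMM scaling, DESeq2 or limma-voom, while upper-quartile and library-size scaling and 2 of the fits without 1 library called Tfeb lower in sh-Pfkp as given above. At an unadjusted p under 0.05, edgeR with TMM scaling had 1 lower in sh-Pfkp and 0 in sh-Lin41, and the other two tools had 0 in both. RNA levels do not show where the factors lie in the cell or their phosphorylation.

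Many lysosomal genes carry near their start the CLEAR element, the site bound by Tfeb and Tfe3, whose core is TCACGTGA. Promoter windows from RefSeq, from 250 bases before to 50 bases after the annotated start, matched 30 of the 36 genes by symbol (build GRCm38.p6). TCACGTGA was present in the windows of 5 of these 30 genes, Ctsa, Cln3, Ctsd, Mcoln1 and Gla, against 1.12% of the 27025 genes in the table and 0.974% of its 32851 windows. The shorter E-box CACGTG, which lies within TCACGTGA, was present in 12 of the 30, adding Atg5, Atg7, Ctsl, Gaa, Glb1, Lamp1 and Naglu, against 8.09% of all genes and 7.15% of windows. Both motifs read the same on the 2 strands, and Lamp1 held 4 copies of CACGTG. The stretches around the core are shown for the 5 genes because they are the members in which the regulators' site can be read directly. Each runs 5′ to 3′ along the gene's own strand with the core in capitals.
Ctsa, chr2:164833720-164833772, plus strand: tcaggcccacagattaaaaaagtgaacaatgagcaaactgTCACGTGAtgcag
Cln3, chr7:126583311-126583398, minus strand: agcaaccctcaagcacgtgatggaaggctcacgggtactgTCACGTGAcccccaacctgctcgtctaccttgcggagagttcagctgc
Ctsd, chr7:142387879-142387966, minus strand: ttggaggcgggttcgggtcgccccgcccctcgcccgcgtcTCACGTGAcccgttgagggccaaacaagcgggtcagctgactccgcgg
Mcoln1, chr8:3500433-3500518, plus strand: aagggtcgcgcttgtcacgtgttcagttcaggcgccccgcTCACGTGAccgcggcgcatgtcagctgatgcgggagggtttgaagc
Gla, chrX:134601153-134601255, minus strand: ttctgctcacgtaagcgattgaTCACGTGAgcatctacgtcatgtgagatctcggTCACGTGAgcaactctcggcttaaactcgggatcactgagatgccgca

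The first base of the core lies at -13 from the annotated start in Ctsa, -46 in Mcoln1, -99 in Ctsd, -122 in Cln3, and -228 and -195 in Gla, and Ctsa has another copy at 5 after the start that is not shown. The 5 genes did not share a direction. In sh-Pfkp, Ctsa, Ctsd and Cln3 were called higher (log2 fold changes 0.40, 0.24 and 0.37), Gla was called lower (-0.28) and Mcoln1 was not called (0.10). In sh-Lin41, Ctsa, Ctsd and Mcoln1 were called higher (0.28, 0.23 and 0.43), Gla was called lower (-0.29) and Cln3 was not called (-0.085). The match describes the letters of the window, and no binding was measured in these samples.

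All 12 lysosomal enzyme genes were called in sh-Pfkp, 7 higher and 5 lower, and in sh-Lin41 6 were higher, 3 lower and 3 not called. The shares called were 100% and 75%, against 56.6% and 54.3% of all genes tested. The summed level of the 12 enzyme genes was 680.5 ± 13.1 CPM in sh-ctrl, 808 ± 7.84 CPM in sh-Pfkp and 876 ± 3.53 CPM in sh-Lin41 (SD, n = 3). Manba alone accounts for a large share of that sum and for most of its rise in both knockdowns. It encodes beta-mannosidase, which removes the last mannose from N-glycan fragments, and it read 197, 198 and 199 CPM under sh-ctrl, 283, 286 and 283 CPM under sh-Pfkp and 349, 354 and 343 CPM under sh-Lin41. The 3 groups stood far apart relative to their spread, with sh-Lin41 highest. The log2 fold change was 0.52, SE 0.0227, adjusted p = 8.01e-19 in sh-Pfkp, 0.82, SE 0.0222, adjusted p = 4.54e-24 in sh-Lin41 and -0.30, SE 0.0211, adjusted p = 1.49e-13 between sh-Pfkp and sh-Lin41.

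Hexa and Glb1, which encode glycosidases of ganglioside breakdown, rose to different extents in the 2 knockdowns. Hexa, the alpha subunit of hexosaminidase A, read 12, 12.3 and 10.6 CPM under sh-ctrl, 23.3, 20.8 and 20.2 CPM under sh-Pfkp and 13.3, 14.4 and 14.5 CPM under sh-Lin41. The sh-Pfkp libraries were highest and sh-ctrl lowest with no overlap between groups. The log2 fold change was 0.88, SE 0.0843, adjusted p = 1.59e-10 in sh-Pfkp, 0.27, SE 0.089, adjusted p = 0.00988 in sh-Lin41 and 0.61, SE 0.0799, adjusted p = 9.57e-08 between sh-Pfkp and sh-Lin41, and the sh-Lin41 call was lost without sh-ctrl replicate 3 (adjusted p = 0.0731). Glb1, the lysosomal beta-galactosidase, read 38.3, 37.1 and 37.6 CPM under sh-ctrl, 46.5, 40 and 42.1 CPM under sh-Pfkp and 51.8, 51.1 and 55 CPM under sh-Lin41. For Glb1 it was sh-Lin41 that stood highest, again without overlap, by a log2 fold change of 0.48, SE 0.0513, adjusted p = 1.75e-09. In sh-Pfkp the change was 0.18, SE 0.0534, adjusted p = 0.00392, lost without sh-Pfkp replicate 1 (adjusted p = 0.0576) and on log2(FPKM + 1) (0.063), and between sh-Pfkp and sh-Lin41 it was -0.30, SE 0.0495, adjusted p = 6.47e-06.

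Naglu, which removes N-acetylglucosamine from heparan sulfate, was lower in sh-Pfkp. It had 37, 29 and 37 counts in the sh-ctrl libraries, 17, 26 and 13 in sh-Pfkp and 39, 48 and 27 in sh-Lin41, or 2.12, 1.85 and 2.02 CPM under sh-ctrl, 0.895, 1.33 and 0.756 CPM under sh-Pfkp and 1.96, 2.32 and 1.49 CPM under sh-Lin41. Every sh-Pfkp library was below every other library, and sh-ctrl and sh-Lin41 overlapped, but with so few reads the fold is imprecise. The log2 fold change was -0.99, SE 0.269, adjusted p = 0.0023 in sh-Pfkp and -0.94, SE 0.265, adjusted p = 0.0032 between sh-Pfkp and sh-Lin41. In sh-Lin41 it was -0.050, SE 0.237, adjusted p = 0.877. The authors' deposited table lists a log2 ratio of -1.06 with an FDR of 0.0111 for Naglu in sh-Pfkp. That ratio is of mean FPKM (0.38 in sh-Pfkp and 0.79 in sh-ctrl).

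The 5 cathepsin genes encode proteases, of which Ctsa, a serine carboxypeptidase, also protects Neu1 and Glb1 from degradation. Ctsd, the aspartic protease of the set, read 139, 132 and 136 CPM under sh-ctrl, 161, 159.6 and 160.5 CPM under sh-Pfkp and 159, 160.3 and 158 CPM under sh-Lin41. Both knockdowns lay above control and overlapped each other, by a log2 fold change of 0.24, SE 0.0274, adjusted p = 8.06e-09 in sh-Pfkp and 0.23, SE 0.0273, adjusted p = 1.87e-08 in sh-Lin41, and the direct difference was 0.011 (SE 0.0264). Ctsa read 37.1, 36.6 and 30.2 CPM under sh-ctrl, 45, 45.2 and 46.9 CPM under sh-Pfkp and 43.9, 39.8 and 41.7 CPM under sh-Lin41. It rose by 0.40, SE 0.059, adjusted p = 6.84e-07 in sh-Pfkp and 0.28, SE 0.0593, adjusted p = 0.000203 in sh-Lin41, and the latter fell to 0.18 on the log2 scale, still called, without sh-ctrl replicate 3. Ctsl, a cysteine protease, rose by 0.14, SE 0.0431, adjusted p = 0.00682 in sh-Pfkp and 0.23, SE 0.0424, adjusted p = 3.24e-05 in sh-Lin41. The sh-Pfkp call on Ctsl was lost without sh-ctrl replicate 3 (adjusted p = 0.0934), with scaling by upper quartile (0.0508) or library size (0.0725), and on log2(FPKM + 1) (0.435).

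The other two cathepsin genes fell. Ctsz had 32.8 ± 1.07 CPM in sh-ctrl, 26.1 ± 0.944 CPM in sh-Pfkp and 26.4 ± 2.24 CPM in sh-Lin41 (SD, n = 3), log2 fold changes of -0.33, SE 0.0616, adjusted p = 2.84e-05 in sh-Pfkp and -0.32, SE 0.0609, adjusted p = 4.66e-05 in sh-Lin41. Ctsb was lower in both, with log2 fold changes of -0.16, SE 0.0384, adjusted p = 0.000891 in sh-Pfkp and -0.091, SE 0.0378, adjusted p = 0.0431 in sh-Lin41. The sh-Lin41 call on Ctsb was lost without sh-ctrl replicate 1 (adjusted p = 0.171) or 3 (0.0538), without sh-Lin41 replicate 1 (0.115) or 2 (0.111), by DESeq2 (0.11) and on log2(FPKM + 1) (0.141).

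Gla, the alpha-galactosidase that is deficient in Fabry disease, had 15.9 ± 0.0115 CPM in sh-ctrl, 13.1 ± 1.42 CPM in sh-Pfkp and 13 ± 2.01 CPM in sh-Lin41 (SD, n = 3). It was lower by a log2 fold change of -0.28, SE 0.0978, adjusted p = 0.0155 in sh-Pfkp and -0.29, SE 0.0972, adjusted p = 0.0117 in sh-Lin41. The sh-Pfkp call was lost without sh-Pfkp replicate 1 (adjusted p = 0.0888) or 3 (0.0626) and by DESeq2 (0.0635). The sh-Lin41 value moved to -0.17 without sh-Lin41 replicate 1 (adjusted p = 0.154) and was not called on log2(FPKM + 1) (0.0574). Neu1, a sialidase, was lower in sh-Pfkp (log2 fold change -0.22, SE 0.093, adjusted p = 0.0427), and in sh-Lin41 the value was -0.13, SE 0.0914, adjusted p = 0.22. The Neu1 call was lost without sh-ctrl replicate 2 (adjusted p = 0.0923) or 3 (0.128), sh-Pfkp replicate 2 (0.087) or 3 (0.124) or replicate 3 of sh-Lin41 (0.0513), by DESeq2 (0.156), with no filter on low counts (0.0726) and in the fit of 6 libraries (0.0504). Gaa, which breaks down glycogen in the lysosome, rose in sh-Pfkp by 0.19, SE 0.046, adjusted p = 0.000742, a call not made on log2(FPKM + 1) (adjusted p = 0.0819), and had 0.039, SE 0.0464, adjusted p = 0.502 in sh-Lin41. The count of enzymes called lower was 3 in place of 5 in sh-Pfkp without sh-Pfkp replicate 3, and 1 in place of 3 in sh-Lin41 without sh-Lin41 replicate 1. DESeq2 also called 3 lower in sh-Pfkp, and on log2(FPKM + 1) the enzymes had 4 higher in sh-Pfkp in place of 7 and 1 lower in sh-Lin41 in place of 3.

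Of the 7 membrane and luminal genes, 4 rose and 1 fell in sh-Pfkp, and 4 rose and 0 fell in sh-Lin41, where 0 were lower also at an unadjusted p under 0.05 by edgeR, DESeq2 and limma-voom. The shares called were 71.4% and 57.1%, against 56.6% and 54.3% of all genes tested. In sh-Pfkp the split was 4 higher and 0 lower by DESeq2 and 2 and 0 on log2(FPKM + 1). Lamp1 read 417, 424 and 415 CPM under sh-ctrl, 499, 484 and 483 CPM under sh-Pfkp and 562, 563 and 573 CPM under sh-Lin41. The groups did not overlap and sh-Lin41 was highest, by a log2 fold change of 0.44, SE 0.0195, adjusted p = 1.24e-18, with 0.22, SE 0.0198, adjusted p = 2.88e-11 in sh-Pfkp and -0.21, SE 0.0192, adjusted p = 4.19e-11 between sh-Pfkp and sh-Lin41. Lamp2, a related protein of the membrane whose A form takes part in chaperone-mediated autophagy, read 48.8, 48.7 and 47 CPM under sh-ctrl, 42.7, 44.9 and 44.6 CPM under sh-Pfkp and 54.5, 60.1 and 52.7 CPM under sh-Lin41. It lay above control in sh-Lin41 (0.21, SE 0.0474, adjusted p = 0.000298) and below control in sh-Pfkp (-0.13, SE 0.0497, adjusted p = 0.0292), and the direct difference was -0.34, SE 0.0475, adjusted p = 2.85e-07. The fall in sh-Pfkp was not called without sh-ctrl replicate 1 (adjusted p = 0.0925) or 2 (0.0813), without sh-Pfkp replicate 1 (0.132) or 3 (0.0503), by DESeq2 (0.125) or on log2(FPKM + 1) (0.0624).

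Mcoln1, which encodes the calcium channel TRPML1 of the lysosomal membrane, read 29, 27.7 and 27.6 CPM under sh-ctrl, 29.7, 29.2 and 31.8 CPM under sh-Pfkp and 38.4, 37.8 and 37.2 CPM under sh-Lin41. The sh-Lin41 libraries were the highest with no overlap, by a log2 fold change of 0.43, SE 0.0535, adjusted p = 4.29e-08, and sh-Pfkp had 0.10, SE 0.0559, adjusted p = 0.116. Cln3, a membrane protein lost in juvenile Batten disease, showed the other order with 7.95, 8.12 and 8.73 CPM under sh-ctrl, 12, 10.6 and 9.37 CPM under sh-Pfkp and 8.03, 7.96 and 7.38 CPM under sh-Lin41. It was higher in sh-Pfkp by 0.37, SE 0.108, adjusted p = 0.00472, with -0.085, SE 0.113, adjusted p = 0.545 in sh-Lin41 and 0.45, SE 0.107, adjusted p = 0.000608 between sh-Pfkp and sh-Lin41, and the sh-Pfkp call was not made on log2(FPKM + 1) (adjusted p = 0.0664). Npc2, which passes cholesterol to Npc1 inside the lysosome, rose in both knockdowns, by 0.30, SE 0.0341, adjusted p = 7.80e-09 in sh-Pfkp and 0.19, SE 0.0342, adjusted p = 2.96e-05 in sh-Lin41. Npc1 itself was not called in any comparison, with 0.053 (SE 0.0423) in sh-Pfkp and 0.088 (SE 0.0418) in sh-Lin41, the latter called without sh-ctrl replicate 3 (adjusted p = 0.0274) or replicate 1 of sh-Lin41 (0.0407). Psap, the precursor of the saposins that help degrade sphingolipids, rose by 0.10, SE 0.0305, adjusted p = 0.00553 in sh-Pfkp, a call lost with scaling by upper quartile (adjusted p = 0.0829) or library size (0.136) and on log2(FPKM + 1) (0.125), and had 0.048, SE 0.0304, adjusted p = 0.182 in sh-Lin41.

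**Figure D4:**
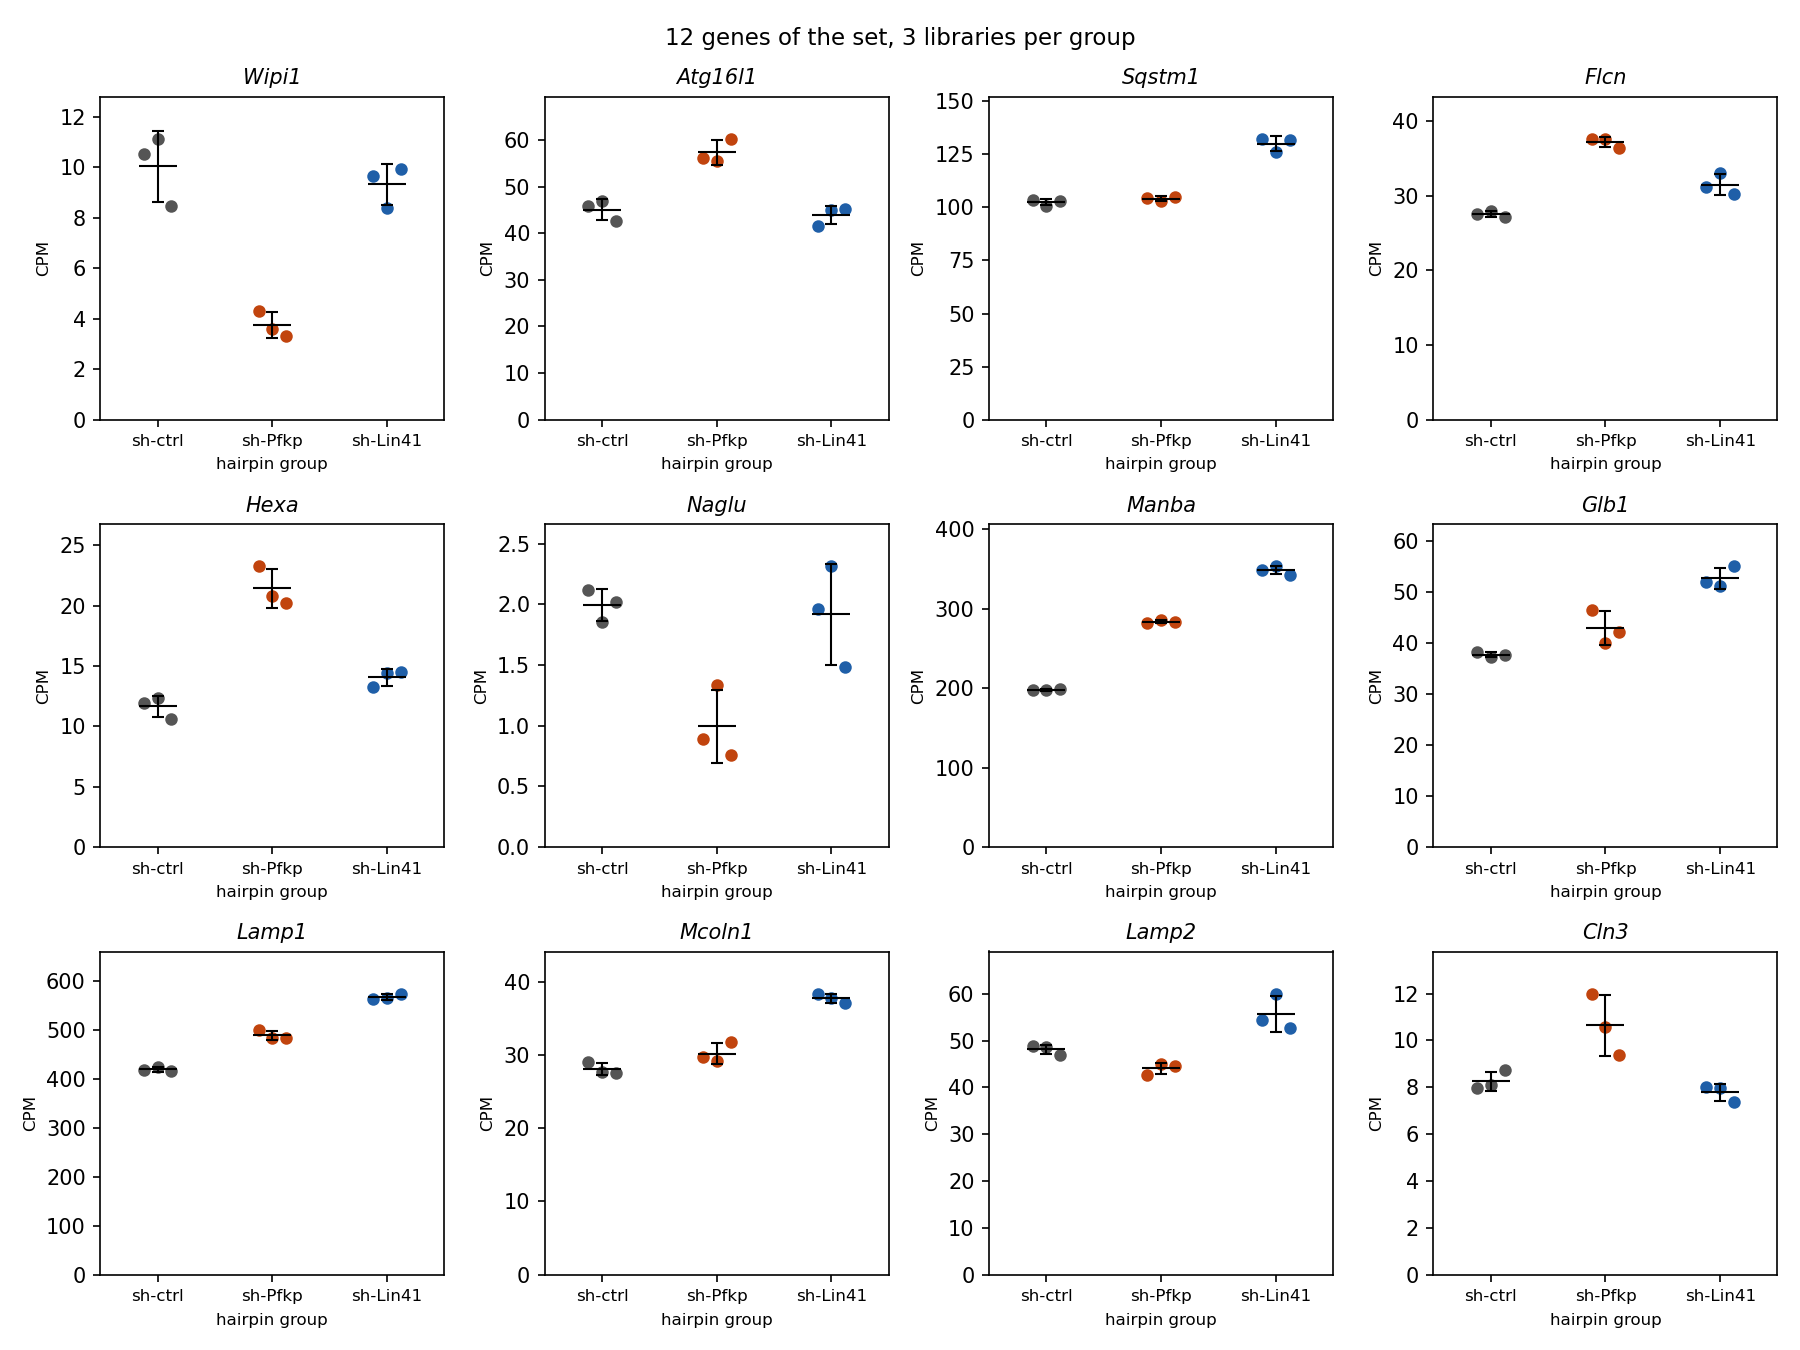
CPM by hairpin group of 12 genes described in the text, 1 point per library, with the mean (long bar) and SD (capped bar) of 3 libraries; each axis starts at 0. Wipi1 and Naglu are lowest and Hexa, Atg16l1, Flcn and Cln3 highest in sh-Pfkp, while Sqstm1, Manba, Glb1, Lamp1, Mcoln1 and Lamp2 are highest in sh-Lin41.

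Set directly against sh-Lin41, sh-Pfkp had 9 of the 36 genes higher and 13 lower, 61.1% of the set, where 55.1% of all genes tested were called (27.4% higher and 27.8% lower). The median over the set was -0.0014, against -0.013 over all genes, and 1 gene, Wipi1, differed by at least 2-fold, where 4.49% of all genes did. By role, 2 of the 12 enzymes were higher, 3 lower and 7 not called, and all 3 regulators were called, 1 higher and 2 lower. The machinery had 4 higher and 5 lower of 14, and the membrane and luminal genes 2 higher and 3 lower of 7. With scaling by upper quartile or library size the enzymes had 2 higher and 5 lower and the membrane and luminal genes 1 higher and 3 lower, and on log2(FPKM + 1) these were 1 and 4, and 1 and 3. Ulk1 (0.18, SE 0.0257, adjusted p = 2.73e-07) and Atg5 (0.28, SE 0.0553, adjusted p = 8.23e-05) were higher in sh-Pfkp, and Wipi2 (-0.17, SE 0.0296, adjusted p = 1.50e-05) and Mcoln1 (-0.32, SE 0.0521, adjusted p = 3.34e-06) were higher in sh-Lin41. Atg16l1 had the largest difference upward among the machinery genes, 0.38, SE 0.0473, adjusted p = 3.12e-08. Among the smaller calls, Gaa was higher in sh-Pfkp by 0.15, SE 0.0447, adjusted p = 0.00481 and Npc2 by 0.11, SE 0.0329, adjusted p = 0.00445, and neither was called on log2(FPKM + 1) (adjusted p = 0.157 and 0.159). Npc2 also missed the threshold with scaling by upper quartile (0.0517) or library size (0.0863). The Atg12 difference of 0.12, SE 0.0493, adjusted p = 0.0418 was lost without sh-Pfkp replicate 1 (adjusted p = 0.0601) or 2 (0.146) or replicate 1 of sh-Lin41 (0.0554) or 2 (0.119) and in 6 other fits (adjusted p from 0.0543 to 0.363).

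Several uncalled differences between the knockdowns sat near the threshold. Ctsa, at 0.13, SE 0.0558, adjusted p = 0.0519, was called without any 1 of the 3 sh-ctrl libraries or without sh-Lin41 replicate 1 (adjusted p from 0.0207 to 0.0439), and with RLE scaling, no filter or the 6 libraries alone. Becn1 was called without sh-Pfkp replicate 1 (adjusted p = 0.045), Ctsb without sh-Pfkp replicate 1 (0.0329) and Ctsl without sh-Lin41 replicate 2 (0.0361). Ctsb and Ctsl were also called with scaling by upper quartile (adjusted p = 0.0226 and 0.0105) or library size (0.014 and 0.00617).

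The rest of the pathway was read from lists of related genes. The V-ATPase, the pump that acidifies the lysosome, had 12 of 17 subunit and accessory genes higher and 0 lower in each knockdown against control, with median log2 fold changes of 0.19 in sh-Pfkp and 0.15 in sh-Lin41. This is 70.6% of the list in each knockdown, all higher, where 28.3% of all genes were called higher and 28.3% lower in sh-Pfkp, and 26.9% and 27.3% in sh-Lin41. DESeq2 also called 12 higher in sh-Pfkp and 10 in sh-Lin41, limma-voom 12 and 12, and none of the 3 tools had a subunit lower at an unadjusted p under 0.05. Atp6ap2, an accessory protein also known as the prorenin receptor, had 63.9 ± 1.8 CPM in sh-ctrl, 90.1 ± 3.26 CPM in sh-Pfkp and 89.6 ± 1.01 CPM in sh-Lin41 (SD, n = 3). The corresponding log2 values against control were 0.50, SE 0.0375, adjusted p = 7.37e-13 in sh-Pfkp and 0.49, SE 0.0373, adjusted p = 9.20e-13 in sh-Lin41, and that of Atp6v0c, the proton-carrying ring subunit, was 0.31, SE 0.0247, adjusted p = 1.99e-12 and 0.36, SE 0.0245, adjusted p = 5.28e-14. Between the knockdowns the list had 5 higher and 5 lower in sh-Pfkp, a split that was 0 and 8 with scaling by library size, 1 and 8 by upper quartile, 1 and 5 on log2(FPKM + 1), 3 and 2 by DESeq2, and 3 and 3 without sh-Pfkp replicate 3.

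**Figure D5:**
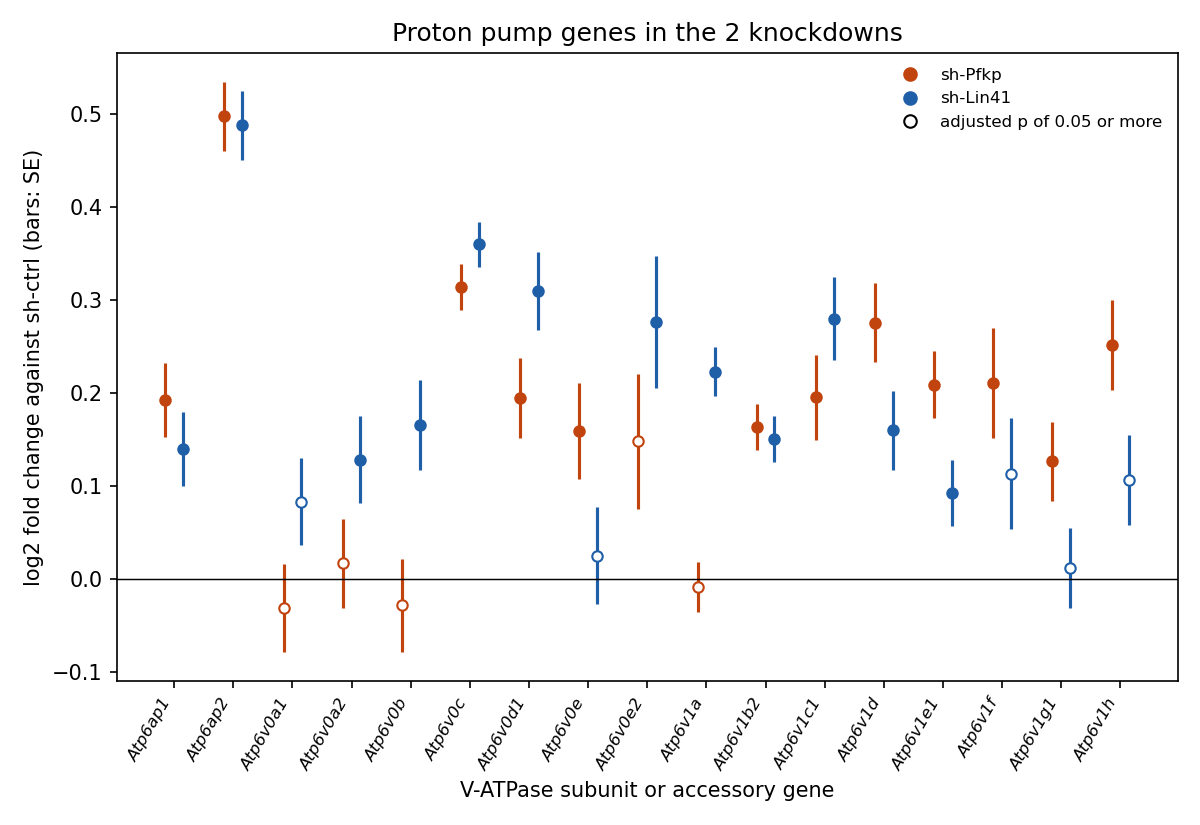
Log2 fold change against sh-ctrl of 17 V-ATPase subunit and accessory genes in sh-Pfkp (orange) and sh-Lin41 (blue), with bars for the standard error and open points where the adjusted p was 0.05 or more. In each knockdown 12 genes lie above 0 with filled points, led by Atp6ap2 at 0.50 and 0.49, and no filled point lies below 0.

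A list of MiT/TFE factors and of the mTORC1 pathway that controls them had 15 higher and 4 lower of 29 tested in sh-Pfkp and 15 higher and 5 lower in sh-Lin41. The shares called were 65.5% and 69%, against 56.6% and 54.3% of all genes, and on log2(FPKM + 1) 9 in place of 15 were higher in sh-Pfkp. Rragd, a Rag GTPase on which Flcn acts, moved in opposite directions, from 26.7 ± 0.904 CPM in sh-ctrl to 44.7 ± 1.3 CPM in sh-Pfkp and 16.9 ± 0.306 CPM in sh-Lin41 (SD, n = 3). The log2 fold change was 0.75, SE 0.0533, adjusted p = 1.92e-13 in sh-Pfkp, -0.66, SE 0.0619, adjusted p = 1.11e-10 in sh-Lin41 and 1.40, SE 0.0563, adjusted p = 8.96e-20 between sh-Pfkp and sh-Lin41. Its paralog Rragc rose in both, by 0.48, SE 0.0405, adjusted p = 8.89e-12 and 0.53, SE 0.04, adjusted p = 6.32e-13. In sh-Lin41 the mTORC1 activator Rheb fell (-0.80, SE 0.0461, adjusted p = 8.25e-16) and Fnip1, the binding partner of Flcn, rose (0.55, SE 0.0405, adjusted p = 3.68e-13). In sh-Pfkp Prkaa2, a catalytic subunit of the energy sensor AMPK, fell (-0.74, SE 0.0579, adjusted p = 1.59e-12), as did Foxo3 (-0.26, SE 0.0337, adjusted p = 1.07e-07).

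Lysosomal enzymes outside the set had 9 higher and 11 lower of 33 tested in sh-Pfkp and 10 higher and 2 lower in sh-Lin41, and set directly against sh-Lin41, sh-Pfkp had 1 higher and 15 lower. The shares called were 60.6%, 36.4% and 48.5%, against 56.6%, 54.3% and 55.1% of all genes. Without sh-Pfkp replicate 2 or sh-Lin41 replicate 2 the direct split was 0 higher and 11 lower, without sh-Lin41 replicate 1 it was 0 and 14, and by DESeq2 0 and 10. Ppt1, a thioesterase that removes fatty acids from proteins, rose by 0.72, SE 0.0627, adjusted p = 2.12e-11 in sh-Pfkp and 1.08, SE 0.0598, adjusted p = 2.81e-16 in sh-Lin41, and the peptidase gene Dpp7 by 0.72, SE 0.128, adjusted p = 1.76e-05 and 0.90, SE 0.125, adjusted p = 3.00e-07. Acp5, an acid phosphatase, fell in both, with log2 fold changes of -0.68, SE 0.0895, adjusted p = 1.13e-07 and -0.70, SE 0.089, adjusted p = 5.32e-08. Among 18 genes of lysosomal membrane and sorting proteins, 9 rose and 5 fell in sh-Pfkp and 10 rose and 4 fell in sh-Lin41, 77.8% of the list in each, and on log2(FPKM + 1) sh-Pfkp had 5 higher and 5 lower. Ctns, the cystine exporter, rose by 0.48, SE 0.0769, adjusted p = 3.80e-06 and 0.82, SE 0.0737, adjusted p = 3.99e-11, and Cln6 fell, with log2 fold changes of -0.51, SE 0.0855, adjusted p = 6.69e-06 and -0.59, SE 0.0855, adjusted p = 6.16e-07.

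Other autophagy machinery had 8 higher and 5 lower of 29 genes in sh-Pfkp, and 12 higher and 4 lower in sh-Lin41, or 44.8% and 55.2% called against 56.6% and 54.3% of all genes. The sh-Pfkp split was 4 higher and 6 lower on log2(FPKM + 1) and 9 and 3 without sh-ctrl replicate 3. Plekhm1, an adaptor for fusion of autophagosomes with lysosomes, rose in sh-Pfkp by 0.61, SE 0.0378, adjusted p = 5.46e-15, and the initiating kinase gene Ulk2 fell there (-0.68, SE 0.152, adjusted p = 0.000325). Wdr45, a further Wipi-family gene, rose in both knockdowns, by 0.57, SE 0.0837, adjusted p = 8.64e-07 in sh-Pfkp and 0.54, SE 0.0834, adjusted p = 2.10e-06 in sh-Lin41. Among 11 receptor genes for selective autophagy, 4 rose and 3 fell in sh-Pfkp and 3 rose and 5 fell in sh-Lin41, 63.6% and 72.7% of the list. The 4 became 1 on log2(FPKM + 1), and 2 without sh-Pfkp replicate 2 or 3, by DESeq2, and with scaling by upper quartile or library size. Bnip3, a mitochondrial receptor, fell, with log2 fold changes of -1.35, SE 0.031, adjusted p = 3.10e-26 in sh-Pfkp and -0.84, SE 0.0293, adjusted p = 2.09e-21 in sh-Lin41. Retreg1, a receptor for the endoplasmic reticulum, fell in sh-Pfkp (-1.13, SE 0.172, adjusted p = 1.50e-06), and Tollip, an adaptor for ubiquitinated cargo, rose by 0.19, SE 0.0405, adjusted p = 0.000156 and 0.47, SE 0.039, adjusted p = 5.72e-12.

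Exons of 14 of the 36 genes overlap those of another gene in the GENCODE M21 annotation, with 3 (Ctsd, Ctsl and Glb1) overlapping on the same strand. Whether the counting used strand is not given in the sources used here. Where exons overlap on the same strand, reads of Ctsd and Gm49369, Ctsl and the processed pseudogene Gm49230, and Glb1 and Tmppe cannot be assigned by strand. The other pairs lie on opposite strands, and their reads could be separated there only if the counting used strand: Sqstm1 and Mrnip, Lamp1 and Grtp1, Map1lc3b and Zcchc14, Ctsa and Pltp or Neurl2, Ctsz and Nelfcd, Ctsb and Fdft1, Becn1 and Cntd1, Cln3 and Apobr, Hexa and Tmem202, Npc1 and Rmc1 or Gm15956, Ctsl and Gm47123, and Gabarapl1 and 1700101I11Rik. In the authors' deposited table, 24 of the 36 genes in sh-Pfkp and 20 in sh-Lin41 had an FDR under 0.05, with 2 (Wipi1 and Naglu) and 0 of them past 2-fold. The share of all genes under that FDR in the authors' table was not computed, so these counts are not read as a trait of the set. The authors' log2 ratios for Wipi1 and Naglu are those of mean FPKM. The edgeR values come from TMM-scaled counts, where Naglu, at -0.99 in sh-Pfkp, was not past 2-fold.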

How the data were processed

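RNA was measured in 9 libraries of mouse R1 embryoid bodies, 3 per hairpin group, grouped by the shRNA label. The deposited tables hold read counts per gene and FPKM, per the file headers 1 column per library, plus the authors' log2 ratio and the authors' p-value and FDR. Tools listed in the submitters' processing notes are RSEM, StringTie 1.3.1, HISAT2, Bowtie2 2.2.8 and fastp 0.18.0. Neither build, annotation nor strand setting is given in the sources used here, and the deposited counts may be rounded estimates.

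Counts were tested in R 4.3.3 with edgeR 4.0.16: filterByExpr, TMM scaling and 1 quasi-likelihood fit over all 9 libraries, with Benjamini-Hochberg adjustment over 13158 genes and a threshold of 0.05 without a minimum fold. The standard error is the absolute log2 fold change over the root of F. The common coefficient of variation between libraries was 0.0213. Replicate libraries differed by more than sampling noise (median chi-square per gene 0.661 to 0.763, against 0.455 expected). Alternatives were RLE, upper-quartile and library-size scaling, other filters, DESeq2 1.42.0, limma 3.58.1 (voom, and trend on log2 of FPKM plus 1 or 0.1), 6-library fits, the replicate number as a block, a 2-fold minimum, and leaving out each library; for named genes outside the 36 these were added after seeing the data. On simulated counts for 13078 genes (sh-Pfkp against sh-ctrl), 76% of genes changed 1.25-fold, 80% at 1.5-fold, 90% at 2-fold and 100% at 4-fold were recovered, and 10 of 12879 unchanged genes were called. The simulation gave all genes 1 common spread between libraries and left nearly all of them unchanged. In the data 56.6% of genes were called in that comparison, so the simulated rates need not hold there. The genes and lists were chosen with earlier results of these data known. All 36 genes could be named. The plan was to give in full, per role and knockdown, the 4 called genes with the smallest adjusted p and the 3 regulators. Of these, Ctsl, Npc2 and Psap are given without levels. Genes outside that rule were added, among them Naglu with its counts. From other lists up to 2 called genes per direction were given, by size of change. Promoters are from RefSeq (GRCm38.p6), and Atg16l1, Atg12, Npc1, Ctsb, Becn1 and Map1lc3a were not matched.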

Additional observations from a re-analysis of the deposited data

How the results depend on the processing

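With no minimum fold, the counts of the 36 genes called higher and lower stayed within 1.5 times in the 3 comparisons, with 2 exceptions, both from limma-trend on log2(FPKM + 1) or log2(FPKM + 0.1): 11 higher in sh-Pfkp in place of 17, and 5 lower in sh-Lin41 in place of 8. The all-gene split of sh-Pfkp against sh-ctrl was 2507 higher and 3802 lower on log2(FPKM + 1), 3018 and 4477 with library size and 3141 and 4360 with upper-quartile scaling, in place of 3721 and 3730; between the knockdowns it was 2409 and 3490, 2939 and 4387, and 3042 and 4244, in place of 3603 and 3652. A 2-fold minimum left 0 higher and 1 lower of the 36 in sh-Pfkp (857 of all genes), 0 and 0 in sh-Lin41 (560), and 0 and 1 between sh-Pfkp and sh-Lin41 (591). No scaling moved the median of all genes by over 0.1 on the log2 scale. In sh-Pfkp against sh-ctrl the shift was -0.039 with upper-quartile scaling, -0.048 with library size and -0.044 on log2(FPKM + 1). Between the knockdowns it was -0.037, -0.046 and -0.041, and in sh-Lin41 against sh-ctrl -0.0020, -0.0019 and -0.0023. Same-numbered libraries of sh-Pfkp and sh-ctrl correlated at 0.0441 to 0.322 (deviations from group means over genes of at least 10 CPM). Those of sh-Lin41 and sh-ctrl correlated at -0.111 to 0.034, and those of sh-Pfkp and sh-Lin41 at -0.236 to -0.0493. In this order, 5, 1 and 0 of 6 libraries correlated best with their own number. The numbers were not taken to pair the samples, since the labels do not say what they mark and the 3 comparisons differed. The 5 of 6 for sh-Pfkp and sh-ctrl went the other way, and what these libraries share was not tested. With the replicate number as a block, no call on the 36 genes changed, and 7435 of all genes were called in sh-Pfkp, 7109 in sh-Lin41 and 7196 between them.

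Values that changed sign were uncalled in both fits. With upper-quartile scaling, library size, log2(FPKM + 1) and log2(FPKM + 0.1), in that order, Ulk1 in sh-Pfkp was -0.0062, -0.015, -0.029 and -0.030, Sqstm1 in sh-Pfkp -0.017, -0.026, -0.028 and -0.028, and between sh-Pfkp and sh-Lin41 Gabarapl2 was -0.011, -0.020, -0.020 and -0.020, Ctsd -0.026, -0.035, -0.034 and -0.034 and Gla -0.025, -0.033, -0.024 and -0.028. With the 2 scalings alone, Atg7 in sh-Pfkp was -0.013 and -0.022. With the 2 FPKM fits alone, Tfe3 in sh-Pfkp was 0.012 and 0.013, Mcoln1 in sh-Pfkp -0.0083 and -0.0088, and Gabarapl1 between the knockdowns -0.086 and -0.094. Over the fits that leave out 1 library each, sign changes came with ranges, in sh-Pfkp, of -0.019 to 0.12 for Atg7 (negative without sh-ctrl replicate 1 or 2), -0.063 to 0.0050 for Atg12 (positive without sh-ctrl replicate 2) and -0.034 to 0.0059 for Tfe3 (positive without sh-Pfkp replicate 2). In sh-Lin41 the range was -0.076 to 0.0032 for Atg16l1 (positive without sh-Lin41 replicate 1) and -0.21 to 0.10 for Naglu (positive without sh-Lin41 replicate 3). Between the knockdowns it was -0.069 to 0.051 for Ctsz (positive without sh-Pfkp replicate 2 or sh-Lin41 replicate 3) and -0.11 to 0.083 for Gla (negative without sh-Pfkp replicate 2 or sh-Lin41 replicate 1). The cause was not tested. Depth limits Naglu most, and the RNA of the other 35 genes was counted over 1000 times.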
